A study of Mus musculus with 20 samples.

Results

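The genes described here are 9 markers of the macrophages that gather around dying adipocytes, and they are described in subcutaneous inguinal white adipose tissue (iWAT) of female mice. They are the secreted proteins Mmp12, Spp1 and Lgals3, the surface proteins Trem2, Itgax and Cd9, and the lysosomal proteins Cd68, Gpnmb and Atp6v0d2. They are 9 of the 36611 genes in the table, chosen by their use as markers of such macrophages and by the measured rise of Mmp12, among the largest on high fat diet (HFD). The diet contrast was thus part of the choice, and their diet values are given as a description without a test. RNA was sequenced from 20 mice of strain C57BL/6 in 4 groups of 5. Control mice, labelled wild type, were littermates homozygous for the floxed Tmem120a allele (Tmem120a fl/fl) without Cre. Knockout mice (Ad-Tmem120a-/-) carried the same floxed alleles and a Cre driven by the adiponectin promoter, which directs the deletion to adipocytes rather than to macrophages. Mice were 6 months old and had been on low fat diet (LFD, 10.5% fat) or HFD (58% fat) for 15 weeks, 5 of each genotype on each diet. Whole tissue was sequenced, so more cells of a type and more RNA per cell cannot be told apart.

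In obese fat, macrophages surround adipocytes that are dying and form crown-like structures, where they take up and digest the released lipid. Trem2 is the receptor on these lipid-associated macrophages that senses lipids and passes its signal on through the adaptor Tyrobp. Such cells are rich in lysosomes, where Cd68, Gpnmb and Atp6v0d2, a subunit of the proton pump that acidifies the lysosome, are found. Mmp12, the macrophage elastase, is a metalloprotease that cuts elastin and other matrix proteins. These genes differ in how specific they are. Cd9 is also abundant in adipocyte progenitors and other cells, and Spp1 and Lgals3 are made by several cell types.

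The libraries held between 54605101 and 92387737 estimated counts each. Levels are given in TPM (a share of all transcripts in the library, scaled to transcript length), and log2 fold changes come from edgeR on estimated counts with their standard error (SE), where a gene was called at an adjusted p under 0.1. Tmem120a, the targeted gene, was measured first as a check of the labels. Summed over its transcripts it was lower in knockout mice on HFD (log2 fold change -1.67 ± 0.29, adjusted p = 0.173 by edgeR) and on LFD (-1.61 ± 0.34, adjusted p = 0.929 by edgeR), and it was called with both diets in 1 fit (-1.64 ± 0.24, adjusted p = 0.00452 by edgeR). Knockout HFD replicate 21 (89.7 TPM) and knockout LFD replicate 7 (74.0 TPM) lay within the range of the control libraries of their diet. The full-length transcript parted the genotypes in all libraries on both diets (two-sided exact permutation test, p = 0.00794 on each diet, the smallest that 5 against 5 allows). By that transcript replicate 21 was a knockout like the others, and HFD genotype values without it are given as a check only. Resident macrophage markers, a list of 14 genes that includes Adgre1, Csf1r and the C1q genes, were detected in each library with a summed level between 387 and 677 TPM. None of the 14 was called in any comparison.

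The sequence before the start of 4 of the genes is shown because 2 starts were in use at Mmp12 and because Mmp12, Itgax and Trem2 are the genes the results turn on. The 250 bases before each start were taken from RefSeq (GRCm38.p6), which held windows for 8 of the 9 genes. Each window was found once, letter for letter, in NCBIM37 (mm9), the build of the deposited files, and positions are given on that build. Capitals mark TGANTCA, a loose form of the AP-1 motif in which N is any base. It reads the same on both strands apart from this middle base, which is A in the Trem2 match and G in those of Mmp12 and Itgax. The upstream window of Mmp12 lies on the + strand at chr9:7344147-7344396, directly before the start of transcript ENSMUST00000120655, and the downstream window at chr9:7347124-7347373, directly before the start of ENSMUST00000065079. The window of Itgax lies on the + strand at chr7:135272814-135273063, that of Trem2 on the + strand at chr17:48485476-48485725, and that of Gpnmb on the + strand at chr6:48986267-48986516.
Mmp12, upstream start: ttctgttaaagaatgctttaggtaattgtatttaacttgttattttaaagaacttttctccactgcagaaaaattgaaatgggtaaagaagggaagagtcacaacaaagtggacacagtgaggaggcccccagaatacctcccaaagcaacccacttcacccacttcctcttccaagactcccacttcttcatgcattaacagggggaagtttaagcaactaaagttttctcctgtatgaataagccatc
Mmp12, downstream start: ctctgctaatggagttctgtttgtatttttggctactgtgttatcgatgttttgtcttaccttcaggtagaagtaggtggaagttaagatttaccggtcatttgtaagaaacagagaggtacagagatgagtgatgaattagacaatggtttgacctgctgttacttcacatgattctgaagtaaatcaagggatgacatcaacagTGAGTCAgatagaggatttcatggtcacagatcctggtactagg
Itgax: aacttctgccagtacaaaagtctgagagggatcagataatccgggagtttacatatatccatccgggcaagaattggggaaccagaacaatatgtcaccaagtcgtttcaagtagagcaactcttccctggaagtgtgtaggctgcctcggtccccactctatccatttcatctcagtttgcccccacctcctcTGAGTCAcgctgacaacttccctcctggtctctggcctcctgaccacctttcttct
Trem2: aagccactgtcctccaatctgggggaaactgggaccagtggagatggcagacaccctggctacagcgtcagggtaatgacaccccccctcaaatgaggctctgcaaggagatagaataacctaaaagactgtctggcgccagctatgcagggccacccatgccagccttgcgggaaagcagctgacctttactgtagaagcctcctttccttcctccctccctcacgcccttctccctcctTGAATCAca
Gpnmb: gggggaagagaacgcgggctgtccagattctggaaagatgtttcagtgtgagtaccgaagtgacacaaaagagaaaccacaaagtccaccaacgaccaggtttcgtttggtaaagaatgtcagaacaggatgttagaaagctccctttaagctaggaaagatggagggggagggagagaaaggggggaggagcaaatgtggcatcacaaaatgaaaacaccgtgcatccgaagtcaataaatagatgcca
The motif TGANTCA was in the downstream window of Mmp12, 44 bases before the start, and in those of Itgax (56 bases before), Trem2 (9 bases before) and Cd68 (149 and 24 bases before), each counted to the first base of the match. It was in neither the upstream window of Mmp12 nor that of Gpnmb. Of all 32851 windows in the table, 6.75% held it. Other letters searched on both strands were CATGTG, a form of the E-box, in 2 of the 8 genes and 12.3% of all windows, CACGTG in 0 genes and 6.02%, GAGGAA in 4 genes and 23.3%, GGAAGT in 3 genes and 19.7%, TATAAA in 1 gene (Spp1) and 12.4%, and CCAAT in 5 genes and 33.8%. CATGTG was in the window of Cd9 and in the downstream window of Mmp12. A match describes letters and is no evidence that a factor binds.

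Averaged over the 20 libraries, Cd9 was highest at 193 TPM, followed by Lgals3 (91.2 TPM), Cd68 (52.5 TPM), Gpnmb (24.6 TPM), Mmp12 (19.02 TPM), Atp6v0d2 (4.08 TPM), Spp1 (2.47 TPM), Itgax (2.20 TPM) and Trem2 (1.74 TPM). In control mice on HFD the order was nearly the same, with Mmp12 next to Gpnmb and Trem2 next to Itgax. There the ranges of neighbours overlapped for Cd9 and Lgals3, for Cd68, Mmp12 and Gpnmb, and for Atp6v0d2, Trem2, Itgax and Spp1, while Lgals3 and Cd68, and Gpnmb and Atp6v0d2, did not overlap. Relative to their level, the 9 genes differed in spread between mice of a group, with an average coefficient of variation of 18.8% for Cd9, 26.7% for Itgax and Cd68, 34.5% for Lgals3, 37.9% for Gpnmb, 43.7% for Spp1, 54.3% for Atp6v0d2, 55.4% for Mmp12 and 55.8% for Trem2. All 9 genes passed the filter on low values (a mean of 0.5 TPM over the libraries compared) in all 6 comparisons.

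**Figure D1:**
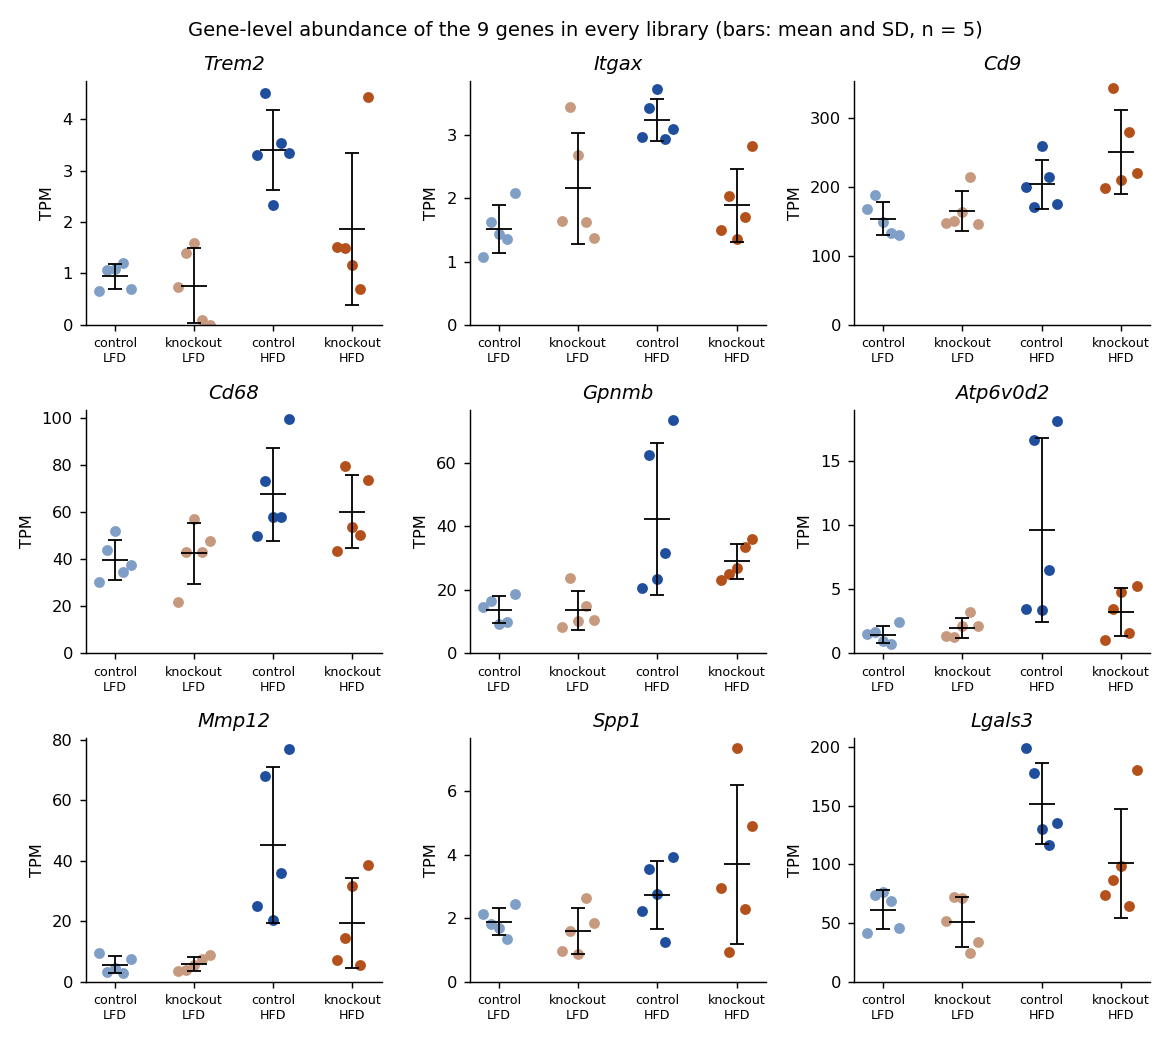
Abundance of the 9 genes in TPM (linear axes from 0), with 1 point per library in the 4 groups and bars for the mean and SD of 5 mice. Mmp12 and Atp6v0d2 spread widely among control mice on HFD, with replicates 12 and 15 highest, while Itgax in the same libraries lies between 2.95 and 3.73 TPM.

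Among the secreted proteins, Mmp12 had the largest ratio between the mean TPM of the diets, 8.17 in control and 3.33 in knockout mice. In control mice on LFD, Mmp12 (gene ENSMUSG00000049723, chr9:7344381-7369499, + strand) was measured at 9.39, 3.36, 4.42, 2.97 and 7.55 TPM. In control mice on HFD it was at 24.9, 68.2, 20.4, 35.9 and 76.9 TPM. Every control library on HFD was above every control library on LFD, and replicates 12 and 15 stood above the other three. In knockout mice Mmp12 was at 3.56, 4.02, 5.45, 7.50 and 8.68 TPM on LFD and at 7.12, 14.4, 31.7, 5.58 and 38.6 TPM on HFD. These groups overlapped, since replicates 17 and 20 on HFD lay within the LFD range. Mean levels were 5.54 ± 2.81 TPM on LFD and 45.2 ± 25.7 TPM on HFD in control mice and 5.84 ± 2.21 and 19.5 ± 14.9 TPM in knockout mice (SD, n = 5). From estimated counts the log2 fold change of HFD over LFD was 2.39 ± 0.42 (SE) in control mice, a 5.25-fold difference, and 1.02 ± 0.45 in knockout mice. Because this rise was part of the choice of Mmp12, its size is a description and may be overstated.

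Lgals3, galectin-3, a lectin that binds sugar chains on cell surfaces and on damaged lysosomes, was the second of the secreted proteins in which the diets did not overlap in control mice. Lgals3 (ENSMUSG00000050335, chr14:47987426-48005835, + strand) was at 41.1, 74.2, 76.6, 69.1 and 45.7 TPM in control mice on LFD and at 199, 178, 130.2, 117 and 135 TPM on HFD. The gap between the diets was wide, with 76.6 TPM as the highest LFD value and 117 TPM as the lowest HFD value. In knockout mice it was at 52.0, 72.1, 70.9, 24.6 and 33.9 TPM on LFD and at 73.9, 87.0, 98.9, 64.3 and 180.1 TPM on HFD. Here 4 of the 5 HFD libraries were above the LFD range, and replicate 21 was far above the other four. Mean levels were 61.4 ± 16.7 and 152 ± 34.8 TPM (SD, n = 5) in control mice and 50.7 ± 21.4 and 101 ± 46.2 TPM in knockout mice, with log2 fold changes of 1.10 ± 0.21 and 0.89 ± 0.28.

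Spp1 encodes osteopontin, a secreted ligand of integrins and CD44, and its diets overlapped in both genotypes. Spp1 (ENSMUSG00000029304, chr5:104864137-104870069, + strand) was at 2.12, 1.81, 1.69, 1.34 and 2.46 TPM in control mice on LFD and at 2.22, 3.54, 2.76, 1.25 and 3.91 TPM on HFD. Knockout mice were at 0.954, 1.61, 0.858, 2.63 and 1.86 TPM on LFD and at 2.96, 0.946, 7.34, 2.29 and 4.91 TPM on HFD. The widest spread was in knockout mice on HFD, where replicate 19 held the highest Spp1 value of all 20 libraries. From LFD to HFD the mean went from 1.88 ± 0.426 to 2.73 ± 1.06 TPM in control mice (log2 fold change 0.32 ± 0.32) and from 1.58 ± 0.723 to 3.69 ± 2.49 TPM in knockout mice (1.11 ± 0.56).

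Among the surface proteins, Trem2 was low on LFD and higher on HFD in control mice. Trem2 (ENSMUSG00000023992, chr17:48485726-48493472, + strand) was at 0.662, 1.07, 1.09, 1.19 and 0.705 TPM in control mice on LFD and at 3.31, 4.52, 2.33, 3.54 and 3.34 TPM on HFD. The 2 groups did not overlap. In knockout mice it was at 0.739, 1.41, 1.59, 0.096 and 0 TPM on LFD, where replicate 9 held 8 counts and replicate 10 held 0, which allows up to 3 counts. On HFD knockout mice were at 1.51, 1.49, 1.17, 0.693 and 4.44 TPM, and replicate 21 alone was within the range of control mice on HFD. Control mice averaged 0.945 ± 0.244 TPM on LFD and 3.41 ± 0.782 TPM on HFD, a log2 fold change of 1.67 ± 0.25. Knockout mice averaged 0.765 ± 0.727 and 1.86 ± 1.48 TPM, with a log2 fold change of 1.35 ± 0.97. Trem2 rested on 0 to 498 estimated counts per library.

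Itgax encodes CD11c, the alpha chain of an integrin that pairs with Itgb2 and marks dendritic cells and macrophages of inflamed fat. Itgax (ENSMUSG00000030789, chr7:135273061-135294171, + strand) was at 1.07, 1.63, 1.44, 1.36 and 2.08 TPM in control mice on LFD and at 2.98, 3.43, 3.73, 2.95 and 3.10 TPM on HFD. The HFD values lay close together and wholly above the LFD values. Knockout mice were at 1.65, 3.45, 2.68, 1.62 and 1.38 TPM on LFD and at 1.51, 2.03, 1.37, 1.71 and 2.83 TPM on HFD. The HFD values of knockout mice overlapped their LFD values, with replicate 19 just below the lowest LFD library. Mean levels were 1.52 ± 0.376 and 3.24 ± 0.333 TPM in control mice and 2.16 ± 0.881 and 1.89 ± 0.583 TPM in knockout mice. From counts this was a log2 fold change of 0.92 ± 0.16 in control and -0.26 ± 0.25 in knockout mice, so Itgax was the 1 gene of the 9 whose diet difference was below 0 in either genotype. Salmon assigned the Itgax counts of most libraries wholly to 1 of 2 coding transcripts, ENSMUST00000033053 or ENSMUST00000166433, so only the sum over both is used.

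Cd9, a tetraspanin of the plasma membrane, was abundant in every library. Its ratio between the mean TPM of the diets was 1.32 in control and 1.52 in knockout mice. Cd9 (ENSMUSG00000030342, chr6:125410284-125444809, - strand) was at 168, 188, 148, 134 and 131 TPM in control mice on LFD and at 199, 170.0, 259, 214 and 176 TPM on HFD. Knockout mice were at 147, 149.8, 164, 215 and 146 TPM on LFD and at 199, 343, 210.0, 280.1 and 219.9 TPM on HFD. Diets overlapped in both genotypes. Averages were 154 ± 24.3 and 204 ± 35.7 TPM in control mice (log2 fold change 0.19 ± 0.14) and 164 ± 29.0 and 250.3 ± 60.5 TPM in knockout mice (0.48 ± 0.21).

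Among the lysosomal proteins, Gpnmb, a transmembrane glycoprotein of late endosomes and lysosomes, was higher on HFD in all control libraries. Gpnmb (ENSMUSG00000029816, chr6:48986517-49020928, + strand) was at 14.7, 16.6, 9.18, 9.74 and 18.5 TPM in control mice on LFD and at 20.5, 62.4, 23.4, 31.7 and 73.5 TPM on HFD. The 2 highest libraries were again replicates 12 and 15. In knockout mice it was at 8.41, 23.8, 10.3, 15.0 and 10.5 TPM on LFD and at 23.2, 25.1, 26.9, 33.4 and 36.1 TPM on HFD. One LFD library, replicate 7, was within the HFD range. Control mice averaged 13.7 ± 4.14 TPM on LFD and 42.3 ± 24.1 TPM on HFD (log2 fold change 1.41 ± 0.38), and knockout mice 13.6 ± 6.18 and 28.9 ± 5.54 TPM (0.93 ± 0.23).

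Atp6v0d2 is the variant of the pump subunit d that is found in osteoclasts and in some macrophages, in contrast to the ubiquitous Atp6v0d1. Atp6v0d2 (ENSMUSG00000028238, chr4:19803988-19849752, - strand) was at 1.53, 1.65, 0.993, 0.708 and 2.43 TPM in control mice on LFD and at 3.49, 16.6, 3.39, 6.51 and 18.2 TPM on HFD. It followed the Mmp12 order, with replicates 12 and 15 highest, 14 next and 11 and 13 lowest. In knockout mice it was at 1.34, 1.24, 2.09, 3.20 and 2.14 TPM on LFD and at 1.06, 3.47, 4.81, 1.59 and 5.24 TPM on HFD. These 2 groups overlapped. On average Atp6v0d2 was at 1.46 ± 0.663 and 9.63 ± 7.22 TPM in control mice and at 2.004 ± 0.785 and 3.23 ± 1.87 TPM in knockout mice. From counts the log2 fold change was 2.59 ± 0.55 in control mice, and 0.54 ± 0.47 in knockout mice.

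Cd68, a glycoprotein of macrophage lysosomes that is used to count macrophages in tissue, differed less. Cd68 (ENSMUSG00000018774, chr11:69477715-69479655, - strand) was at 30.4, 43.9, 51.8, 34.5 and 37.6 TPM in control mice on LFD and at 49.96, 73.1, 57.8, 57.8 and 99.8 TPM on HFD. Replicate 11 on HFD lay below the highest LFD library. Knockout mice were at 21.7, 42.9, 57.3, 43.0 and 47.9 TPM on LFD and at 43.6, 79.8, 53.9, 50.5 and 73.7 TPM on HFD, with overlap. Averages were 39.6 ± 8.41 and 67.7 ± 19.8 TPM in control mice (log2 fold change 0.89 ± 0.23) and 42.6 ± 13.03 and 60.3 ± 15.6 TPM in knockout mice (0.58 ± 0.20).

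In control mice the diets did not overlap for 6 of the 9 genes (Mmp12, Lgals3, Trem2, Itgax, Gpnmb and Atp6v0d2), and 8.32% of the 15311 genes tested were likewise higher on HFD without overlap. In knockout mice the diets overlapped for all 9 genes, and 5.01% of 15705 genes were higher without overlap. Since the diet contrast chose the genes, nothing is read from these counts. The median log2 fold change of the 9 genes was 1.10 in control mice and 0.89 in knockout mice, where the medians of all genes tested were -0.038 and 0.0026. On the log2(TPM + 1) scale the median of all genes was shifted upward by 0.13 in control mice and 0.078 in knockout mice, and the median of the 9 genes was 1.17 and 0.68. Resident macrophage markers summed to between 408 and 582 TPM in control mice on LFD and between 431 and 636 TPM on HFD, and these sums overlapped. Relative to that sum, Mmp12 was at 0.564 to 2.30 TPM per 100 TPM of resident markers in control mice on LFD and at 3.21 to 17.8 on HFD. Muscle fibre genes, a list of 10 that includes Acta1 and Ckm, summed to 7.13 to 3127 TPM in control mice on LFD and to 6.85 to 48.7 TPM on HFD. Of these 10, 8 were called lower on HFD in control mice, with a median log2 fold change of -5.52 over the list, and none was called in knockout mice (median 0.60). Of 9 epithelial genes tested, 2 (Epcam and Elf5) were called lower on HFD in control mice and all were below 0 in both genotypes. The part of muscle and epithelium in the diet values was not tested.

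The Mmp12 values were also followed through its transcripts, because the fold change depended on which of them were counted. The table held 7 Mmp12 transcripts that differ in start and class. A retained-intron transcript, ENSMUST00000148005 (chr9:7347406-7357663), was low in all groups, at 1.03 to 2.49 TPM in control mice on LFD, 1.77 to 3.48 TPM in knockout mice on LFD, 0.667 to 1.67 TPM in control mice on HFD and 0.511 to 2.87 TPM in knockout mice on HFD. It took 25.2% to 75.6% of the Mmp12 counts in control mice on LFD and 49.7% to 71.6% in knockout mice on LFD, but 4.74% to 16.8% in control mice on HFD and 7.02% to 39.9% in knockout mice on HFD. On LFD this transcript thus held a larger share of the gene than on HFD.

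The protein-coding Mmp12 transcripts were higher on HFD in all control libraries. In control mice they summed to 8.33, 1.53, 2.85, 1.94 and 4.95 TPM on LFD and to 22.1, 59.1, 18.6, 33.2 and 66.2 TPM on HFD. In knockout mice they summed to 0.012, 2.25, 2.98, 1.25 and 6.46 TPM on LFD and to 6.55, 5.02, 22.8, 4.35 and 30.9 TPM on HFD. In knockout LFD replicate 6 Salmon assigned almost nothing to coding transcripts. Of its Mmp12 sum of 3.56 TPM, 1.54 TPM went to a transcript of nonsense-mediated decay and 2.01 TPM to the retained-intron transcript. Coding transcripts did not overlap between diets in control mice. With coding transcripts alone the log2 fold change of HFD over LFD was 3.12 ± 0.57 in control mice and 2.17 ± 0.90 in knockout mice, both larger than with all transcripts. With all transcripts and offsets for their length it was 2.87 ± 0.47 and 1.58 ± 0.50. A transcript annotated for nonsense-mediated decay, ENSMUST00000127722, was also higher on HFD in control mice, at 0 to 0.281 TPM on LFD and 0.361 to 9.004 TPM on HFD. In knockout mice it was at 0 to 2.78 TPM on LFD and 0 to 7.25 TPM on HFD, where it took up to 40.4% of the Mmp12 counts and exceeded the coding transcripts in replicate 18 (6.52 TPM). Both starts shown above were in use on HFD. The transcript from the upstream start, ENSMUST00000120655, was at 11.9 to 52.3 TPM in control mice on HFD, and the full-length transcript from the downstream start, ENSMUST00000065079, at 3.97 to 18.6 TPM. The division of reads between transcripts that share most exons is an estimate by Salmon. The levels of a single start and of a transcript class, coding or not, carry that uncertainty.

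**Figure D2:**
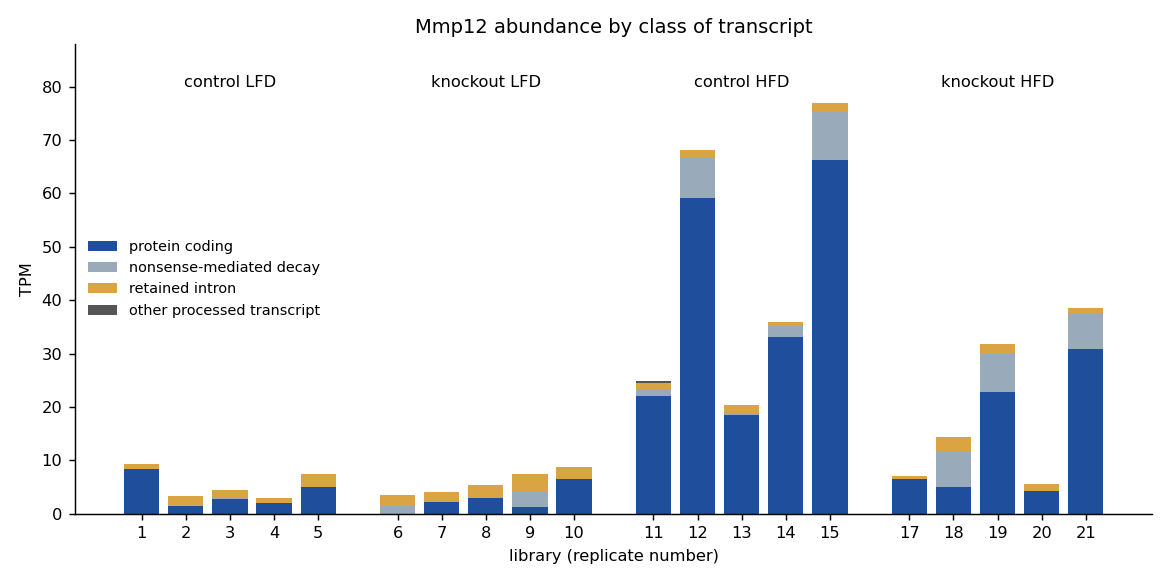
Mmp12 abundance in TPM in each of the 20 libraries, stacked by the annotated class of the transcript (bars start at 0). Coding transcripts make up most of each bar on HFD in control mice, while the retained-intron transcript, between 0.511 and 3.48 TPM in all libraries, is a large part of the bars on LFD.

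The genotype comparison on HFD asked whether loss of Tmem120a in adipocytes went with a change in these macrophage genes. Of the 9 genes, 7 were lower in knockout mice and 2 (Cd9 and Spp1) higher, and none was called by edgeR, where 1 of 15228 genes was (0.00657%). The largest differences were in Atp6v0d2 (log2 fold change -1.64 ± 0.59, 95% interval -2.92 to -0.36) and Mmp12 (-1.16 ± 0.52, interval -2.28 to -0.04). Itgax, at -0.79 ± 0.18 (interval -1.18 to -0.40), had the smallest error for its size and an adjusted p of 0.325 by edgeR. At an unadjusted p under 0.05 by edgeR, 5 of the 9 genes (Itgax, Atp6v0d2, Lgals3, Trem2 and Mmp12) were lower, beside 4.66% of all genes in either direction. The control HFD libraries in this comparison are those in which the Mmp12 rise was noticed, so this count is not independent of the choice of genes.

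Itgax was the 1 gene of the 9 in which the genotypes did not overlap on HFD, with knockout mice at 1.37 to 2.83 TPM and control mice at 2.95 to 3.73 TPM, and 0.151% of all genes were lower in knockout mice without overlap. DESeq2 called Itgax (adjusted p = 0.0136), the 1 member among its 100 calls (0.657%), and limma on log2(TPM + 1) called none of the 9, with adjusted p = 0.847 for Itgax. Trem2 was lower by -0.83 ± 0.36 and Lgals3 by -0.60 ± 0.23, and for each 4 of the 5 knockout mice had less than any control mouse. Knockout replicate 21 was the exception in both. Gpnmb (-0.60 ± 0.34) and Cd68 (-0.19 ± 0.21) had intervals that included 0, as did Cd9 (0.33 ± 0.18) and Spp1 (0.43 ± 0.50). The median log2 fold change of the 9 genes was -0.60, where that of all genes tested was 0.0060.

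Knockout HFD replicate 21 had summed Tmem120a in the control range, but its full-length transcript was below all controls. It also held the highest knockout HFD value of Itgax, Lgals3, Trem2, Mmp12, Gpnmb and Atp6v0d2, so leaving it out lowers their knockout means. Without it edgeR called 58 of 15245 genes (0.38%), and 1 of the 9 was among them. This was Itgax (log2 fold change -0.92 ± 0.17, adjusted p = 0.0645 by edgeR). Lgals3 then differed by -0.84 ± 0.18 (adjusted p = 0.135 by edgeR), Trem2 by -1.23 ± 0.31 (adjusted p = 0.217 by edgeR) and Mmp12 by -1.41 ± 0.55 (adjusted p = 0.433 by edgeR). With coding transcripts alone and all libraries, Mmp12 differed by -1.67 ± 0.56 (adjusted p = 0.913 by edgeR). Resident macrophage markers summed to 431 to 636 TPM in control and 481 to 677 TPM in knockout mice on HFD, with a median log2 fold change of 0.0044 over the 14 genes. Muscle fibre genes summed to 6.85 to 48.7 TPM in control and 39.7 to 1371 TPM in knockout mice on HFD, and their part in the difference was not tested. Replicate 21 had the lowest of these knockout sums. It had the highest knockout HFD sum of resident macrophage markers (677 TPM) and of adipocyte markers (7117 TPM).

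**Figure D3:**
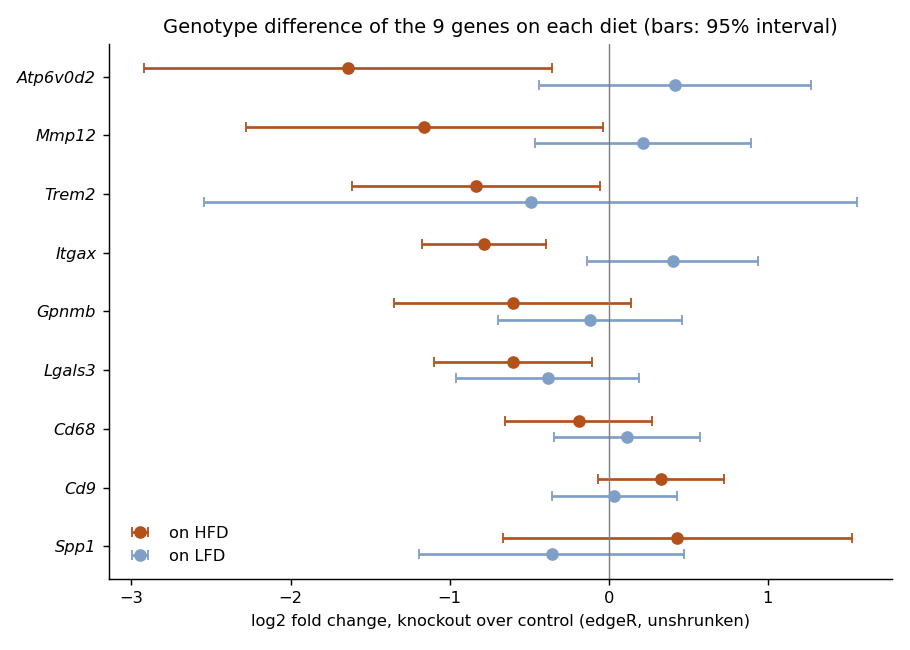
Log2 fold change of knockout over control on HFD and on LFD for each of the 9 genes, from edgeR on estimated counts (points: estimate, bars: 95% interval, vertical line at 0). On HFD the intervals of Atp6v0d2, Mmp12, Trem2, Itgax and Lgals3 lie below 0, while on LFD all 9 include 0.

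On LFD the genotypes overlapped in all 9 genes and none was called, where edgeR called 1 of 15717 genes (0.00636%). None of the 9 had an unadjusted p under 0.05 by edgeR either, beside 5.11% of all genes, and neither DESeq2 nor limma called any. The log2 fold changes ran from -0.49 ± 0.94 for Trem2 to 0.42 ± 0.39 for Atp6v0d2, with Itgax at 0.40 ± 0.24 and Mmp12 at 0.21 ± 0.31. The sign of Mmp12 depended on the transcripts counted, since coding transcripts alone gave -0.75 ± 0.88 (adjusted p = 0.978 by edgeR). The interval of Cd9, from -0.36 to 0.43, was the narrowest of the 9. The median of the 9 genes was 0.036, and that of all genes -0.018.

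With both diets in 1 fit and diet as a term, none of the 9 genes was called by edgeR, DESeq2 or limma, where edgeR called 6 of 15574 genes (0.0385%). Lgals3 was the 1 gene with an unadjusted p under 0.05, beside 7.44% of all genes, at a log2 fold change of -0.50 ± 0.18 (adjusted p = 0.573 by edgeR). The Lgals3 estimate was below 0 on both diets, but on LFD the genotypes overlapped and its interval included 0 (-0.38 ± 0.26, interval -0.96 to 0.19). Trem2 and Gpnmb were also below 0 on both diets. The median of the 9 genes was -0.37, and that of all genes -0.011.

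The interaction asked whether the genotype difference itself differed between HFD and LFD. None of the 9 genes was called, and edgeR called 0 of 15574 genes (0.0%) while DESeq2 called 14, none of them a member. Itgax had the smallest error for its size, at -1.20 ± 0.30 (95% interval -1.83 to -0.57, adjusted p = 0.9999 by edgeR and 0.107 by DESeq2). Its genotype difference was -0.79 on HFD and 0.40 on LFD. Atp6v0d2 followed at -2.07 ± 0.74 (interval -3.62 to -0.52) and Mmp12 at -1.39 ± 0.65 (interval -2.74 to -0.03). These 3 genes had an unadjusted p under 0.05 by edgeR, beside 3.6% of all genes, and the control libraries on HFD that enter this term are again those behind the choice of Mmp12. The median of the 9 genes was -0.35, and that of all genes 0.012.

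Genes that work with the 9 were examined in 10 lists by function, 141 genes in all. Of those tested, 18 of 126 (14.3%) were called higher on HFD in control mice and 3 (2.38%) lower, where 4.42% of all genes were called higher and 4.9% lower. In knockout mice 11 of 124 (8.87%) were called higher and 2 (1.61%) lower, where 4.55% and 4.85% of all genes were called higher and lower. None was called in a genotype comparison or in the interaction by edgeR. A call made in control or in knockout mice alone does not show that the genotypes differ. The median log2 fold change of the list genes on HFD was 0.16 in control and 0.20 in knockout mice.

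Lysosomal enzymes and membrane proteins were the largest group of calls by number, in the list with the most genes tested. Of 27 genes tested, 6 were called higher in control mice, 3 in knockout mice and none lower. Ctsl, the cysteine protease cathepsin L, was at 348 ± 86.6 TPM (SD, n = 5) on LFD and 763 ± 77.6 TPM on HFD in control mice (log2 fold change 0.92 ± 0.16, adjusted p = 0.00884 by edgeR) and was also called in knockout mice (1.05 ± 0.18, adjusted p = 0.00620 by edgeR). Ctsb, Pld3, Gla and Lamp1 were called in control mice alone and Ctsk in knockout mice alone. Whether the diet differences of these genes differed between genotypes is a question for the interaction. There edgeR called 0 of 15574 genes, so the lack of a call leaves it undecided. Lipa, the acid lipase that hydrolyses cholesteryl esters and triglycerides in lysosomes, was at 0.53 ± 0.20 in control mice and was not called (adjusted p = 0.148 by edgeR).

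Of the 21 subunits of the proton pump tested, 2 were called higher in control mice (Atp6v0c and Atp6v1c1) and 2 in knockout mice (Atp6v0c and Atp6v1e1), while Atp6v1b1, a subunit known from kidney, was called lower in control mice (-1.27 ± 0.40). Atp6v0c, the ring subunit that carries protons, was at 0.52 ± 0.12 in control mice (adjusted p = 0.0315 by edgeR) and 0.59 ± 0.12 in knockout mice (adjusted p = 0.0178 by edgeR). Atp6v0d1, the ubiquitous counterpart of Atp6v0d2, was at 28.2 ± 3.36 TPM on LFD and 40.5 ± 8.15 TPM on HFD in control mice and was not called (0.31 ± 0.15, adjusted p = 0.267 by edgeR). The value for Atp6v0d2 in the same mice was 2.59 ± 0.55.

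Of 10 genes of Trem2 signaling, 1 was called higher in control mice and none in knockout mice. The adaptor Tyrobp was at 68.1 ± 24.6 TPM on LFD and 85.8 ± 17.3 TPM on HFD in control mice (0.07 ± 0.26, adjusted p = 0.915 by edgeR). The gene called was Apoe, the apolipoprotein that is a ligand of Trem2 and is also made by adipocytes (0.75 ± 0.22, adjusted p = 0.0807 by edgeR). In knockout mice Apoe was at 0.89 ± 0.33 and was not called (adjusted p = 0.147 by edgeR). Of the 4 partners of Itgax tested, Itgb2, the beta chain that pairs with it, was called in control mice (0.55 ± 0.15, adjusted p = 0.0573 by edgeR) and was at 0.11 ± 0.21 in knockout mice. Itgal, the alpha chain of LFA-1 on lymphocytes, was called lower in knockout mice (-1.12 ± 0.32, adjusted p = 0.0647 by edgeR) and was at -0.58 ± 0.36 in control mice. Of the 7 partners of Cd9, Cd81 was called in control mice (0.42 ± 0.11, adjusted p = 0.0456 by edgeR). In knockout mice Cd81 was at 0.51 ± 0.20 and was not called (adjusted p = 0.164 by edgeR).

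In the lipid handling list, 2 of 14 genes were called higher in each genotype. Pltp, the phospholipid transfer protein, was called in both (0.997 ± 0.155 in control, 0.89 ± 0.21 in knockout mice). Abcg1, a cholesterol exporter, was called in control mice (0.80 ± 0.13, adjusted p = 0.00737 by edgeR), and Pparg, the master regulator of adipocytes, in knockout mice (0.46 ± 0.13, adjusted p = 0.0653 by edgeR). Plin2, which coats lipid droplets, was at 0.52 ± 0.20 in control mice (adjusted p = 0.160 by edgeR). Among 11 partners of Spp1 and Lgals3, the integrin chain Itgb5 and the galectin Lgals1 were called higher in both genotypes. Itgb5 was at 0.81 ± 0.12 in control mice and 0.66 ± 0.15 in knockout mice. Lgals3bp was called higher (0.47 ± 0.11) and Itgb3 lower (-0.68 ± 0.18) in control mice.

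No other metalloprotease of the lists was called higher on HFD in either genotype. Of 12 genes for metalloproteases, their inhibitors and elastin tested in control mice, Mmp9, the gelatinase of neutrophils and osteoclasts, was the 1 call and was lower (-1.01 ± 0.24, adjusted p = 0.0370 by edgeR). In knockout mice Mmp9 was at -0.93 ± 0.33 and was not called. Of 6 cell fusion and osteoclast genes tested, which include Ctsk and Mmp9 again, 1 was called lower in control mice (Mmp9). In knockout mice 1 was called higher (Ctsk) and 1 lower (Nfatc1, -0.69 ± 0.17). Dcstamp, which is needed for cell fusion, was at 0.253 ± 0.209 TPM on LFD and 0.934 ± 0.494 TPM on HFD in control mice and was not called (1.73 ± 0.74, adjusted p = 0.205 by edgeR). Of 17 recruitment and activation genes, Ccl2, the chemokine that draws monocytes, was called in control mice (1.18 ± 0.31, adjusted p = 0.0555 by edgeR), as was Il1rn, the interleukin-1 receptor antagonist (1.85 ± 0.47, adjusted p = 0.0450 by edgeR). Ccl2 was at 0.70 ± 0.37 and Il1rn at 0.019 ± 0.49 in knockout mice. In knockout mice Ccr2, the receptor of Ccl2, and Retnla were called higher (0.52 ± 0.17 and 0.62 ± 0.16). Ccr2 was at 0.30 ± 0.20 and Retnla at -0.11 ± 0.22 in control mice.

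**Figure D4:**
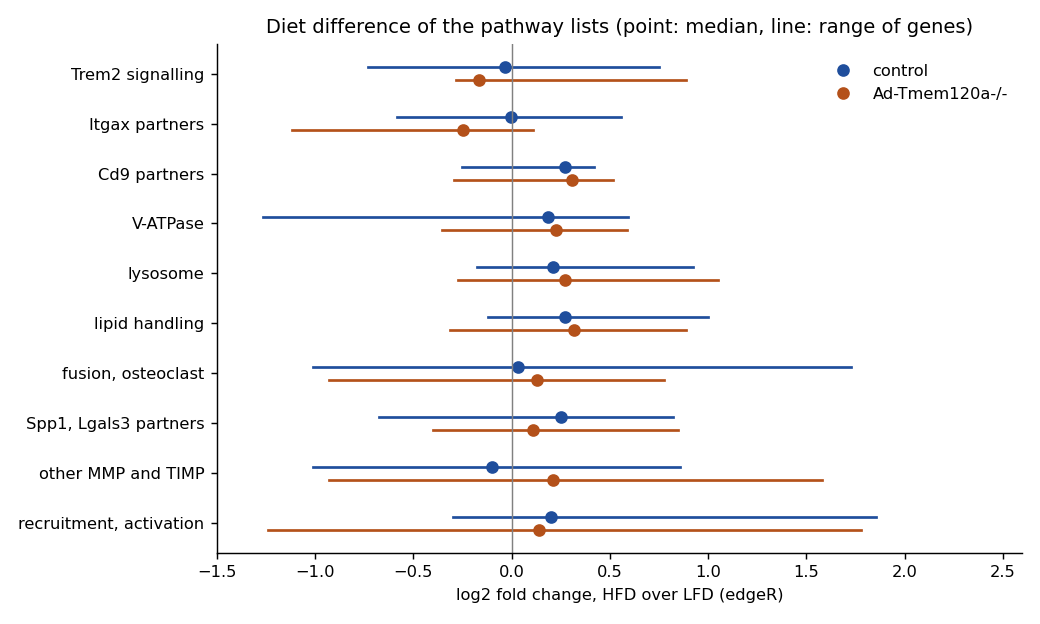
Log2 fold change of HFD over LFD (edgeR) for the 10 lists, as the median (point) and the range from the lowest to the highest gene (line) in control and in Ad-Tmem120a-/- mice. Medians lie between -0.25 and 0.32, and the lysosome list is at 0.21 in control and 0.27 in knockout mice.

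Among mice of the same group, the most alike pairs of the 9 genes fell in 2 sets, and Cd9 was in neither. For each gene the deviation of log2(TPM + 1) from its group mean was taken in the 20 libraries, and the deviations were correlated over 36 pairs of genes as a description. Mmp12 and Atp6v0d2 were the most alike (Pearson r = 0.87, Spearman rho = 0.89, n = 20). Gpnmb followed Atp6v0d2 (r = 0.69), Spp1 followed Mmp12 (r = 0.60), and Cd68 followed Atp6v0d2 (r = 0.57). The second set was Trem2 with Lgals3 (r = 0.87, rho = 0.85), Trem2 with Itgax (r = 0.68) and Itgax with Lgals3 (r = 0.61). Across the sets, Mmp12 was at 0.075 with Lgals3, 0.014 with Itgax and 0.20 with Trem2. Itgax was at 0.39 with both Gpnmb and Cd68, close to the 0.42 of Gpnmb with Spp1 within the first set. Cd68 with Spp1, both in the first set, was at 0.094, as low as pairs across the sets. The sets thus rest on their strongest pairs and are not sharply parted. Leaving out knockout HFD replicates 20 and 21, which were farthest from the mean in Mmp12, gave 0.88 for Mmp12 with Atp6v0d2, 0.81 for Trem2 with Lgals3 and -0.24 for Mmp12 with Trem2. Of the 36 pairs, 7 were above 0.5 and 11 below 0, and 7 of the 11 involved Cd9. These points share library and tissue composition.

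**Figure D5:**
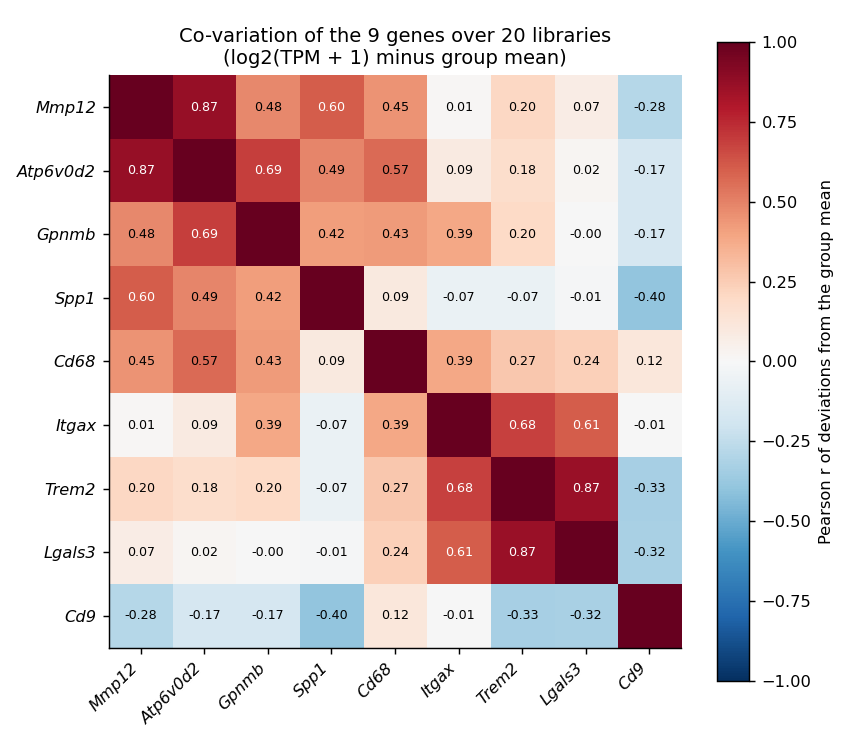
Pearson correlation of the deviations from the group mean in log2(TPM + 1) for each pair of the 9 genes over 20 libraries (color scale from -1 to 1). Mmp12 and Atp6v0d2 (0.87) and Trem2 and Lgals3 (0.87) form the darkest cells outside the diagonal, and Cd9 is at or below 0.12 with every other gene.

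Epithelial markers moved against the genes of the first set. In the 5 control libraries on HFD, epithelial markers (10 genes such as Epcam and the keratins) summed to 218, 127, 227, 181 and 67.9 TPM, with the lowest sums in replicates 12 and 15, in which Mmp12 was highest. Over all 20 libraries the deviations of Mmp12 and of this sum had r = -0.75, and those of Atp6v0d2 r = -0.72. Gpnmb was at -0.57, Spp1 at -0.53 and Cd68 at -0.42. Outside the first set, Cd9 was at 0.54, Itgax at 0.040, Lgals3 at 0.037 and Trem2 at -0.14. Lymphocyte markers (9 genes) summed to 41.1, 20.9, 172, 164 and 135 TPM in the same 5 libraries. Over all 20 libraries their r was -0.56 for Mmp12, -0.38 for Atp6v0d2, -0.32 for Spp1, -0.27 for Gpnmb and 0.055 for Cd68. The milk protein gene Wap, a marker in the epithelial list, was at 0 in all libraries of 3 groups. With resident macrophage markers Lgals3 had r = 0.62 and Mmp12 r = -0.26, and with adipocyte markers (9 genes) Lgals3 had r = 0.55 and Mmp12 r = -0.28. Dendritic cells also carry Itgax, and of their 8 markers 1 was called lower on HFD in control mice (Siglech) and 2 in knockout mice (Flt3 and Clec9a). No neutrophil marker was called in any comparison. Of the lymphocyte markers, 1 (Cd3e) was called lower on HFD in knockout mice, and of the melanocyte markers, a cell type that also carries Gpnmb, 1 of 3 tested (Tyr) was. Of the adipocyte markers, Lep was called higher on HFD in both genotypes and Adrb3 lower in control mice. Their part in these patterns was not tested.

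By the same measure, 13976 genes that reached 1 TPM on average were ranked by their likeness to Mmp12. The 10 most alike were Enpp6 (r = 0.88), Atp6v0d2 (0.87), Ptplb (0.84), Fam198b (0.83), Lipf (0.83), Ell2 (0.83), Tnip3 (0.82), Dram1 (0.81), Gm13709 (0.81) and Uso1 (0.81). Atp6v0d2 was the 1 other member among them. Levels of these genes did not all move with diet as Mmp12 did. Lipf, a lipase of the acid lipase family, was at 1.04 ± 1.11 TPM in control mice on LFD and 24.8 ± 10.1 TPM on HFD, whereas Enpp6, a choline phosphodiesterase, was at 1.49 ± 0.60 and 1.35 ± 0.33 TPM. Dram1, a lysosomal membrane protein, was at 67.1 ± 13.7 and 98.0 ± 9.97 TPM. With the 2 farthest libraries left out, the 10 values of r lay between 0.74 and 0.88.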

How the data were processed

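RNA from iWAT of 20 female mice was sequenced after depletion of ribosomal RNA with a stranded kit. For each of 96533 transcripts the authors deposited estimated counts and TPM values, made with Salmon 0.13.1 against Ensembl transcripts of build NCBIM37 (mm9). Per the study's methods, reads were also aligned with STAR 2.5.3. Here both units were summed per gene with the GENCODE annotation of that build, which placed 97.7% of transcripts (all but 0.377% to 0.581% of counts) in 36611 genes. Of all value columns, 0 could not be mapped to a sample.

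Estimated counts were rounded and tested with edgeR's quasi-likelihood test (TMM factors, Benjamini-Hochberg adjustment, calls at an adjusted p under 0.1), on genes averaging 0.5 TPM or more over the libraries compared. Each comparison was fitted on its own groups, and both genotype terms over all 20 libraries. Reads give counting error and spread between mice together. The p-values set each difference against the spread between mice, with 5 mice per group. Alternatives were RLE factors, DESeq2, limma on log2(TPM + 1), no filter, length offsets, leaving out each library, a pseudocount of 0.1 and TPM scaled by TMM factors; protein-coding transcripts only were added after the values were seen. The fits were tested on simulated data. Tools were R 4.3.3, edgeR 4.0.16, limma 3.58.1, DESeq2 1.42.0, Python 3.11.15, pandas 2.3.3, numpy 2.4.6, scipy 1.17.1 and matplotlib 3.10.9.

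The 9 genes, the 10 lists of genes by function and the 8 marker lists (resident macrophage, dendritic cell, neutrophil, lymphocyte, adipocyte, epithelium, melanocyte and muscle fibre) were chosen with earlier results of these data known. Named were the 9 genes, Tmem120a, up to 5 called genes with the largest change per list and comparison, 7 genes picked for their role (Tyrobp, Itgb2, Atp6v0d1, Apoe, Lipa, Plin2 and Dcstamp) and the 10 genes most like Mmp12. A further called gene of the lysosome list and some called marker genes were named after their values were seen, and the called muscle fibre genes are given as a count. One gene of the lists is not reported here. Promoter windows came from RefSeq, and 7 motifs were searched in them.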

Additional observations from a re-analysis of the deposited data

Results flagged for a closer look

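Of 36 groups of 5 libraries (9 genes in 4 groups), 2 held a library far from the other 4, where chance gives about 1 in 20 groups. Trem2 was at 4.44 TPM in knockout HFD replicate 21, with the other 4 knockout libraries on HFD between 0.693 and 1.51 TPM. Cd9 was at 215 TPM in knockout LFD replicate 9, with the other 4 between 146 and 164 TPM. Replicate 21 is also the knockout HFD library whose summed Tmem120a, but not its full-length transcript, lay in the control range. The cause was not tested.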

How the results depend on the processing

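Of 756 recomputed single-gene values of the genotype comparisons, 733 kept their direction and their side of the threshold, 2 passed it and 21 changed sign. On HFD the number of the 9 genes called was 0, and it was 1 with DESeq2 and between 0 and 1 when each library was left out. The gene was Itgax, at -0.79 with DESeq2 and -0.92 without knockout HFD replicate 21. The sign changes were in genes whose 95% interval in that comparison included 0. When libraries were left out, Cd68 ran from -0.31 to 0.033 and Spp1 from -0.024 to 0.67 on HFD, Cd9 from -0.14 to 0.11 and Cd68 from -0.0042 to 0.25 on LFD, Cd68 from -0.11 to 0.074 and Spp1 from -0.20 to 0.14 with both diets, and Trem2 from -0.77 to 0.034 in the interaction. With length offsets Cd68 on LFD was -0.00023, and with protein-coding transcripts only Mmp12 on LFD was -0.75 and Cd68 with both diets 0.027. The causes were not tested.

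Pathway genes called on HFD in control mice numbered 21, 37 with limma and 10 to 26 when libraries were left out, with 10 without LFD replicate 2, LFD replicate 5 or HFD replicate 12 and 12 without LFD replicate 3. In knockout mice they numbered 13, 25 with DESeq2 and 5 to 12, with 5 without LFD replicate 6 and 8 without HFD replicate 19 or 21. Calls over all genes on HFD were 1 by edgeR, 100 by DESeq2, 26 without the filter, 5 with length offsets, 3 by limma, 10 without control replicate 12 and 58 without knockout replicate 21. On LFD they were 1 and 17 by DESeq2, with both diets 6 and 32, and in the interaction 0 and 14. Between diets they were 1427 in control mice (DESeq2 2205, limma 2139, 780 to 1845 when libraries were left out) and 1476 in knockout mice (DESeq2 2247, 753 to 1355 when libraries were left out). No paired analysis was possible because the groups share no replicate number.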
